A study of Mus musculus with 6 samples.

Results

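Antisense genes are transcribed from the DNA strand opposite to another gene, and this account describes the 132 of them that were clearly expressed in 6 mouse RNA sequencing libraries, each beside the protein-coding gene that it overlaps. Members are rows that the deposited table classes as antisense and whose mean over all 6 libraries reached 2 FPKM (fragments scaled to gene length and library depth). The table holds 2826 antisense rows among 54532 genes, and 2102 of the antisense rows held a value above 0 in some library. The names Kcnq1ot1, Snhg1, Snhg12, Gas5 and Dancr were left out by the same rule, which removed 0 rows above the minimum. Just inside the minimum were Gm15489 (mean 2.001 FPKM) and Tmem147os (2.003 FPKM), and just outside were C330018A13Rik (1.997 FPKM) and Gm33460 (1.972 FPKM). The members were thus selected on their mean level, which is given as a description. The difference between the groups was not part of the rule.

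The libraries came from RNA of mouse tissue labelled lung. Of these, 3 are labelled young, from mice aged 3 months, and 3 are labelled aged, from mice aged 18 months. The labels give no strain, sex, genotype or treatment for either group. Separate mice within a group are not stated, and p-values therefore speak only of the spread among these 6 libraries, which may be technical. Per-library values below are in the order of replicates 1, 2 and 3, and higher, lower, rose and fell always refer to the aged group against the young group.

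The contents went against the tissue label in all 6 libraries. Of 10 lung epithelial markers, 9 stayed under 1 FPKM in every library, as did 5 of 5 endothelial and 5 of 6 leukocyte markers, whereas 7 of 9 fibroblast and stroma markers and 4 of 4 proliferation markers stood at 10 FPKM or more throughout. The other 2 stroma markers, Thy1 and Dcn, stayed under 1 FPKM in every library. The summed lung epithelial markers lay between 10.9 and 11.3 FPKM in the young group and 7.18 and 8.05 FPKM in the aged group, most of it Hopx. The summed leukocyte markers lay between 5.89 and 7.73 FPKM in the young group and 15.9 and 17.05 FPKM in the aged group, most of it Cd68, a macrophage and lysosome gene, which rose 2.30-fold (limma adjusted p = 8.74e-05). The summed fibroblast and stroma markers lay between 1691 and 1726 FPKM in the young group and 1847 and 1954 FPKM in the aged group, but single members moved in opposite directions. Fn1 rose from 526 ± 3.91 to 960.2 ± 35.3 FPKM (limma adjusted p = 1.17e-05), while Col1a1, Col1a2, Col3a1 and Pdgfra fell, Col3a1 the most at 3.24-fold (limma adjusted p = 1.11e-06). Pdgfrb also rose, by 1.09-fold (limma adjusted p = 0.048). Of the proliferation markers, Ccnb1 and Aurka rose, Mki67 fell and Top2a was not called. The part of these markers in the antisense levels was not tested. Kidney markers summed to 133 FPKM in young replicate 1 and 26.7 FPKM in young replicate 3, against 0.796 FPKM in young replicate 2 and 1.07 to 1.76 FPKM in the aged group. Recovered reads per library ranged from 16649061 to 17456715, and in such bulk RNA fewer cells of a type and less RNA per cell cannot be told apart.

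Antisense transcripts arise in several layouts. Some start near the promoter of the coding gene and run away from it, some converge on its 3′ end, and some lie wholly within its introns and exons. Individual antisense RNAs are known to act on the neighbouring gene through transcription across its promoter, through recruitment of chromatin proteins or through pairing with the sense RNA, while many others have no known role. Many are short-lived and are degraded by the nuclear exosome, a complex of RNA-digesting enzymes that adaptor proteins bring to its targets.

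Short sequences show how these genes lie against their partners. Of the 132 members, 50 had a promoter in the RefSeq table used here (GRCm38.p6), as did 86 of the 118 distinct partners. The first 3 sequences below are the 250 bases before the start of Jun, whose window is transcribed across by the antisense gene Junos, of Ptprtos, the member with the highest level, and of Kank4os, which rose while its partner was near 0. Capitals mark matches, on either strand, to any of 8 motifs searched. These were TGANTCA (an AP-1 site, in 6.75% of 32851 upstream windows of 250 bases), TGACNTCA (an AP-1 and CRE-like site, 7.49%), the interferon-stimulated response element (2.98%), ACGTG (a hypoxia core, 16.6%), CCAAT (33.8%), TATAAA (12.4%), CACGTG (an E-box, 6.02%) and GGGCGG (a GC box, 32.7%). CACGTG contains ACGTG, and the pair of AP-1 patterns did not overlap in these windows. Each match is a description of letters and not evidence of binding.
Jun upstream, chr4:95052223-95052472, minus strand: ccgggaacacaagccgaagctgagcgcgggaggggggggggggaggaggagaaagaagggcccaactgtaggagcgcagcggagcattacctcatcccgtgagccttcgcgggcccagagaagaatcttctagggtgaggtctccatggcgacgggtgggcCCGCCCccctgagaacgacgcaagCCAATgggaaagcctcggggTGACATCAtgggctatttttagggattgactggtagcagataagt
Ptprtos upstream, chr2:162390563-162390812, plus strand: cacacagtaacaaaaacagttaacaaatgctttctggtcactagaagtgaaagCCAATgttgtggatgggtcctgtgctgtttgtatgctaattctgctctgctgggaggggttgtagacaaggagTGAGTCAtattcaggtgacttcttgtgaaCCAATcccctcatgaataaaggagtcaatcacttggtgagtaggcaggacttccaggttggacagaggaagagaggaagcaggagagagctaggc
Kank4os upstream, chr4:98793518-98793767, plus strand: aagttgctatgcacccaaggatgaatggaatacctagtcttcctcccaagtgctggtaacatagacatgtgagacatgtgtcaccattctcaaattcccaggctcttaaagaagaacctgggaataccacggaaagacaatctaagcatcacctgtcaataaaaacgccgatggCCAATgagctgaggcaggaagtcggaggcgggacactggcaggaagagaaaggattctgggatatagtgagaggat

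The Jun window held TGACATCA 45 bases before the start, a CCAAT box 65 bases before it and a GC box 89 bases before it. The Ptprtos window held TGAGTCA 124 bases before the start and CCAAT boxes 197 and 95 bases before it, and the Kank4os window held a CCAAT box 76 bases before it.

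The next 3 sequences are stretches of antisense exons from the GENCODE M21 transcripts (GRCm38), shown because their capitals are complementary to protein-coding exon sequence of the partner. They are Gm12454 against Car9, Gm13544 against Acvr1c and Gm12905 against Mycbp. The reverse complement of each capital run was found in a partner transcript. The facing runs are 145, 168 and 73 bases long in all, and at most 80 facing bases of each are printed.
Gm12454, chr4:43508668-43508747, minus strand: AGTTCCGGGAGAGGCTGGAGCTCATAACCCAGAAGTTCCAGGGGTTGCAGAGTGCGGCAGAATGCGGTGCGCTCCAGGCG
Gm13544, chr2:58284812-58284911, plus strand: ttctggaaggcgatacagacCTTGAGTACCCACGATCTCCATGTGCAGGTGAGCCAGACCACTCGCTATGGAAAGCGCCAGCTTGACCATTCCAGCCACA
Gm12905, chr4:123905214-123905326, minus strand: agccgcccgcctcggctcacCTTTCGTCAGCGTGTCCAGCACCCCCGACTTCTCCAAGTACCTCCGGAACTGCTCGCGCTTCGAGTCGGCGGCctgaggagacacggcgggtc

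The sources used here do not give the authors' use of strand in counting. Without strand, a read from such a facing stretch cannot be told apart from a read of the partner, so the number of shared exon bases is given beside most pairs named below. That number leaves out reads of partner RNA that still holds its introns, where antisense exons can also lie. Pairs without shared exon bases are therefore not free of this limit. Of the 132 members, 119 overlapped a protein-coding gene on the opposite strand and 13 did not. The 119 had 118 distinct partners, since Gm26935 and Tmem147os both overlap Gapdhs. Where a member overlapped several coding genes (15 members, at most 3 genes), the one with the longest overlap was its partner. Of the 119, 58 lay inside the partner, 31 were head to head with it, 24 tail to tail and 6 spanned it. Tail to tail, or converging, here means that only the 3′ end of the antisense gene lies within the partner, at any place in it. Exon bases were shared in 71 pairs and in none of 46 others, and 2 pairs could not be measured. Where any were shared, the median was 182 bases, with a range from 7 bases (Gm11832 and Rad54b) to 1428 bases (Gm17690 and Mtmr11).

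Most members were expressed at low levels. The median of the members' means was 3.40 FPKM, the range 2.001 to 42.7 FPKM and the median length 911 bases. Reads summed over the 6 libraries ranged from 80 to 16122 per member with a median of 379.5, so single low members carry a wide counting error. The summed reads of all members made up 0.0945% to 0.0951% of a library in the young group and 0.115% to 0.116% in the aged group, and these ranges did not overlap. Tug1 (7436 reads in the young group, 8686 in the aged group) and Brip1os (6510 and 9527 reads) weigh heavily in this sum. It also includes 16 members at 2 FPKM or more only in the aged group, and 10 only in the young group. The members were most numerous on chromosomes 7 (18 members), 11 (17) and 4 (14).

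Members were more often below their partner than above it. Of the 119 pairs, 46 members had a higher mean FPKM than the partner and 73 a lower one, with a median ratio of 0.509. The partner was under 1 FPKM in 23 pairs. Head-to-head members had the lowest median ratio of the larger layouts, at 0.285, against 0.462 for tail-to-tail and 0.712 for members inside the partner. For 3 pairs the partner had no read in any library and no ratio is given. Of the others, the highest ratios were those of Kank4os, whose partner Kank4 had 3 reads in all 6 libraries, of Rab26os (98.5 times the level of Rab26) and of Ptprtos (91.5 times that of Ptprt). The lowest, at 0.0279, was that of Gm44199 inside Brk1.

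**Figure D1:**
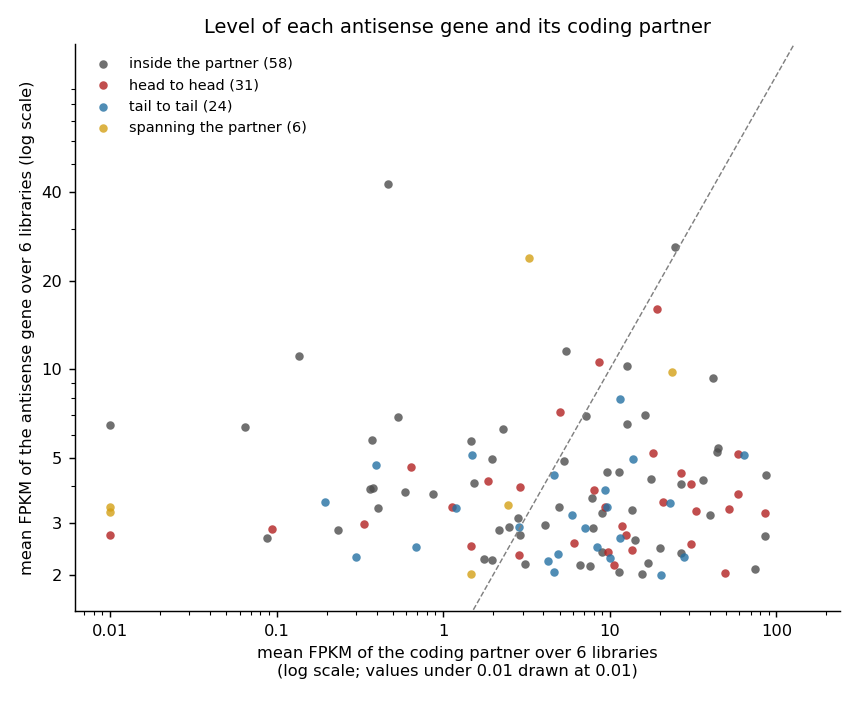
Mean FPKM of the 119 members with a coding partner (vertical axis, log scale) against mean FPKM of the partner (horizontal axis, log scale), with 1 point per pair coloured by layout and a dashed line at equal levels. The 46 points above the line are members with a higher level than their partner, and Kank4 and 3 partners with no read in any library are drawn at 0.01.

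The most abundant members lay in different layouts. Ptprtos (ENSMUSG00000084919, chromosome 2, 162390813 to 162393945, plus strand, build mm10 as for all positions here) lies inside Ptprt, a receptor tyrosine phosphatase gene, and shares no exon base with it. It read 38.9, 41.8 and 40.6 FPKM in the libraries labelled young and 44.6, 44.5 and 45.8 FPKM in those labelled aged. The groups did not overlap, and the rise was small, at 1.11-fold (log2 difference 0.15 ± 0.04 SE, limma adjusted p = 0.0101). Without young replicates 1 and 3, which hold kidney transcripts, its adjusted p no longer passed 0.05. Ptprt itself stood at 0.272, 0.256 and 0.390 against 0.673, 0.673 and 0.535 FPKM, a difference called by limma (adjusted p = 0.0273) but not without young replicate 1 or without young replicate 2.

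Gm17201 lies inside Ankrd52, a regulatory subunit gene of protein phosphatase 6, with 232 exon bases shared, and read 27.8, 28.9 and 25.6 FPKM in the libraries labelled young and 28.2, 20.6 and 25.2 FPKM in those labelled aged. The groups overlapped (limma adjusted p = 0.253). Its partner stood at 25.1, 25.7 and 25.3 against 23.5, 23.1 and 24.4 FPKM (adjusted p = 0.0427), a call that 13 of 18 alternatives ended, among them leaving out any 1 library but aged replicate 3. Brip1os spans Ints2, an Integrator complex gene, with 512 exon bases shared, and was 1.48-fold higher, moving from 19.3 ± 0.660 to 28.6 ± 0.309 FPKM (SD, 3 libraries per group, log2 difference 0.54 ± 0.04 SE, limma adjusted p = 3.27e-05). Its libraries read 19.1, 18.8 and 20.1 against 28.9, 28.5 and 28.3 FPKM, without overlap.

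Tug1, a long noncoding RNA found in many tissues, starts 179 bases inside Morc2a, a chromatin-silencing ATPase gene, and the pair runs head to head. Tug1 read 15.1, 14.5 and 14.5 FPKM in the libraries labelled young and 16.9, 17.2 and 18.1 FPKM in those labelled aged, a rise of 1.18-fold (limma adjusted p = 0.0025). Morc2a went the other way, at 22.7, 22.4 and 23.2 against 15.8, 14.8 and 16.0 FPKM (limma adjusted p = 5.56e-05). Both differences were larger than the spread within a group, and the ratio of the pair rose (log2 difference of the ratio 0.75 ± 0.07 SE, limma adjusted p = 0.00026). Their exon overlap could not be measured, because the rows could not both be matched to GENCODE M21. Of the other abundant members, 4930478M13Rik, inside Dip2b and without shared exon bases, stood at 12.3, 12.7 and 11.8 against 9.58, 11.4 and 11.2 FPKM, without overlap between the groups but short of the threshold (limma adjusted p = 0.0571). Gm13544 inside Acvr1c, an activin receptor gene, rose 1.43-fold, with 9.82, 8.76 and 8.75 against 13.4, 13.2 and 12.5 FPKM and limma adjusted p = 0.000376. Acvr1c lay between 0.0935 and 0.209 FPKM and was too low to test.

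Differences between the groups were about as frequent among members as among all genes, with more rises. By limma on log2(FPKM + 1), 47 members (35.6%) were higher in the aged group, 31 (23.5%) lower and 54 not past an adjusted p of 0.05. Over all 15197 tested genes, 27.7% were higher and 32.3% lower, 60.0% in all, against 59.1% of members. Groups did not overlap for 80 members (60.6%), against 66.9% of all tested genes. The median log2 difference was 0.07 for members and -0.03 for all tested genes. Counts per layout were 14 higher and 7 lower of 31 head to head, 4 and 8 of 24 tail to tail, 21 and 14 of 58 inside the partner, and 2 and 1 of 6 spanning it. Of the 13 without a partner, 6 were higher and 1 lower. These layouts were not tested against each other.

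The counts are given by shared exons as well, without a test between them. Among the 71 members that share exon bases with the partner 23 were higher and 20 lower, and among the 46 that share none 17 were higher and 9 lower. Without the 2 young libraries that hold kidney transcripts, 33 members were higher and 24 lower, and 55 of these calls were among the 78 made with all libraries. In that setting 21.02% of 14480 tested genes were higher and 22.6% lower, 43.7% in all, so calls were fewer among all genes too. With median centring of the libraries, 53 members were higher and 30 lower, against 32.8% and 26.5% of all tested genes. A mean-based choice of members favours rows that are high in 1 group. Of the 106 members at 2 FPKM or more in both groups, 33 were higher and 23 lower, of 16 at that level only in the aged group 14 were higher, and of 10 at that level only in the young group 8 were lower.

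Other transcript classes at the same level are given for comparison. Among 227 long intergenic noncoding RNA genes with a mean of at least 2 FPKM, 105 were higher and 44 lower. Of 9840 tested protein-coding genes at that level, 2950 were higher and 3910 lower. Among 373 tested antisense genes below the members' minimum, 75 were higher and 41 lower, and at such levels fewer reads stand behind each value. The rises of named members reached 4.55-fold and the falls 3.52-fold, and the 47 rises had a median of 1.66-fold.

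**Figure D2:**
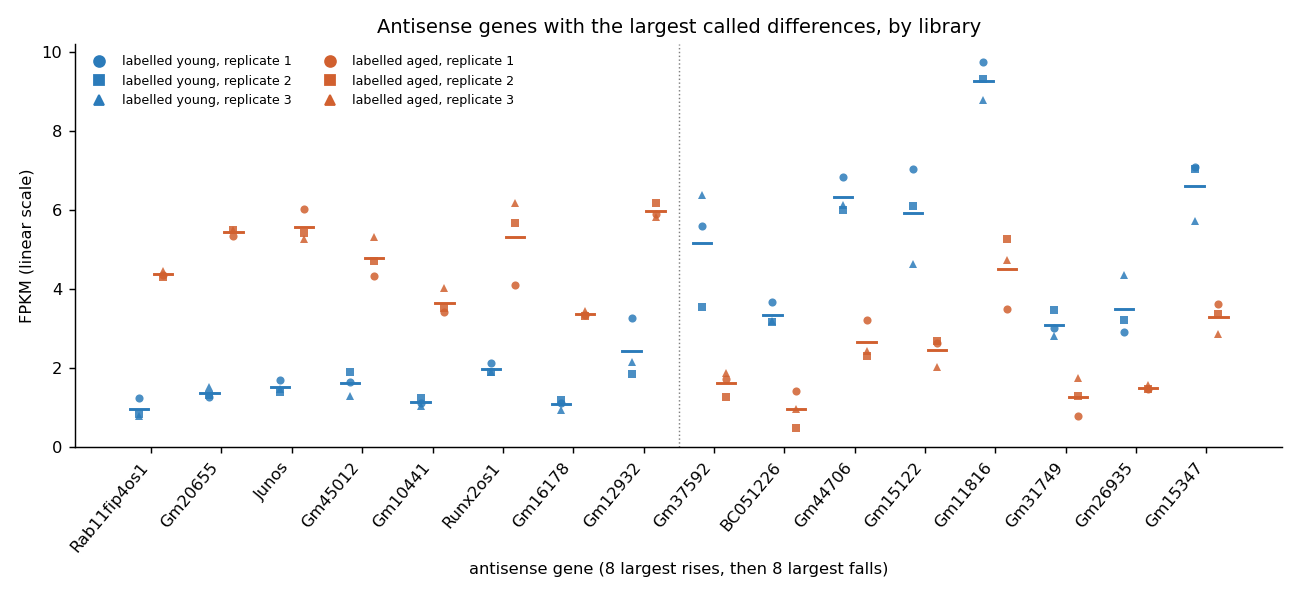
FPKM (vertical axis, linear scale) in each of the 6 libraries for the 8 largest called rises and the 8 largest called falls among the members, with short bars at the group means. No gene shown has overlapping groups, and Rab11fip4os1 moves from 0.795 to 1.248 FPKM in the young group to 4.31 to 4.44 FPKM in the aged group.

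The largest rise was that of Rab11fip4os1 (ENSMUSG00000087434, chromosome 11, 79607079 to 79623163, minus strand), which lies inside Rab11fip4, an effector of the endosomal GTPase Rab11. Rab11fip4os1 read 1.248, 0.843 and 0.795 FPKM in the libraries labelled young and 4.36, 4.31 and 4.44 FPKM in those labelled aged, 4.55-fold higher (log2 difference 1.46 ± 0.10 SE, limma adjusted p = 3.41e-05). Rab11fip4 itself had 19 reads in the young group and 48 in the aged group and stood at most at 0.141 FPKM. The antisense row therefore rose over a coding gene that was nearly silent and below the level tested.

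Gm20655 (chromosome 10, 17790522 to 17799921, minus strand) runs head to head with Txlnb, a taxilin gene known from muscle, with no shared exon base. It read 1.27, 1.31 and 1.52 FPKM in the libraries labelled young and 5.33, 5.48 and 5.51 FPKM in those labelled aged, so that every aged library stood above every young one by a wide margin (3.98-fold, log2 difference 1.45 ± 0.06 SE, limma adjusted p = 7.64e-06). Txlnb stood at 0.876, 1.06 and 1.11 against 1.12, 1.253 and 1.38 FPKM and did not pass the test (limma adjusted p = 0.15). The ratio of Gm20655 to Txlnb rose (log2 difference of the ratio 1.28 ± 0.11 SE, limma adjusted p = 8.51e-05).

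Junos (ENSMUSG00000087366, chromosome 4, 95051534 to 95167318, plus strand) starts 688 bases inside Jun and runs across the Jun promoter window printed above. Jun encodes one part of AP-1, a stress- and growth-responsive transcription factor. Junos read 1.69, 1.40 and 1.46 FPKM in the libraries labelled young and 6.03, 5.43 and 5.27 FPKM in those labelled aged, a rise of 3.67-fold (log2 difference 1.39 ± 0.07 SE, limma adjusted p = 1.52e-05). Jun rose as well, moving from 16.5 ± 0.834 to 25.5 ± 1.27 FPKM (SD, 3 libraries per group), with 17.2, 15.6 and 16.7 against 25.4, 24.2 and 26.7 FPKM (limma adjusted p = 0.000106). Neither gene overlapped between groups. Junos rose more than Jun (log2 difference of the ratio 0.79 ± 0.11 SE, limma adjusted p = 0.00162), although 232 exon bases, 5.64% of the exons of Junos, are shared.

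Gm45012 converges on Mogat2, a monoacylglycerol acyltransferase gene of triglyceride synthesis, and shares 55 exon bases with it. Gm45012 read 1.64, 1.90 and 1.29 FPKM in the libraries labelled young and 4.33, 4.71 and 5.31 FPKM in those labelled aged (2.97-fold higher, limma adjusted p = 0.000136). Mogat2 read 7.75, 9.42 and 8.56 FPKM in the libraries labelled young and 3.33, 3.18 and 3.46 FPKM in those labelled aged (2.58-fold lower, limma adjusted p = 2.79e-05). In the young group the coding gene was the more abundant of the pair in every library, and in the aged group the antisense gene was. The ratio rose accordingly (log2 difference of the ratio 2.30 ± 0.13 SE, limma adjusted p = 1.15e-05).

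Runx2os1 lies inside Runx2, the transcription factor gene of bone formation, and 519 of its exon bases (65.5%) face Runx2 exons, the highest share among the measured pairs. Runx2os1 read 2.13, 1.89 and 1.90 FPKM in the libraries labelled young and 4.11, 5.66 and 6.17 FPKM in those labelled aged, of which aged replicate 1 was the lowest of its group (2.69-fold higher, limma adjusted p = 0.000412). Runx2 fell, with 10.7, 10.04 and 9.84 against 5.61, 5.45 and 5.43 FPKM (limma adjusted p = 2.03e-05). The 2 genes moved apart despite the shared bases (log2 difference of the ratio 1.86 ± 0.15 SE, limma adjusted p = 8.25e-05). Gm16178, which converges on the DNA damage kinase gene Nek1 without shared exon bases, stood at 1.12, 1.19 and 0.941 against 3.35, 3.31 and 3.44 FPKM (3.11-fold higher, limma adjusted p = 3.27e-05). Nek1 stood at 5.52, 5.29 and 5.30 against 3.40, 3.04 and 3.14 FPKM (limma adjusted p = 0.00011). Gm16178 rests on 38 reads in the young group and 117 in the aged group.

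Gm10441, inside the Notch pathway transcription factor gene Rbpj and without shared exon bases, rose 3.22-fold, with 1.13, 1.23 and 1.05 against 3.42, 3.51 and 4.03 FPKM (limma adjusted p = 3.7e-05). Rbpj rose less, with 7.502, 7.91 and 7.22 against 10.4, 10.4 and 10.6 FPKM (limma adjusted p = 0.000198), and the ratio of the pair rose too (log2 difference of the ratio 0.69 ± 0.11 SE, limma adjusted p = 0.00271). Gm12932 overlaps no coding gene on the opposite strand and lies 187 bases from Meaf6, a histone acetyltransferase subunit gene on that strand. It rose 2.46-fold, with 3.28, 1.86 and 2.15 against 5.91, 6.18 and 5.82 FPKM (limma adjusted p = 0.00082), while Meaf6 stood at 7.88, 8.19 and 8.05 against 6.94, 6.13 and 6.50 FPKM (limma adjusted p = 0.0038), a call lost without young replicates 1 and 3. Young replicate 1, the library with most kidney transcripts, was the highest of its group for Gm12932, and the part of those transcripts in the value was not tested.

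Among the falls, Gm37592 was the steepest on the log2 scale. It lies inside Zfp639, a zinc finger gene, with 167 exon bases (44.8%) shared, and read 5.61, 3.55 and 6.37 FPKM in the libraries labelled young and 1.72, 1.26 and 1.87 FPKM in those labelled aged (3.20-fold lower, log2 difference -1.22 ± 0.19 SE, limma adjusted p = 0.00139). Zfp639 fell with it, at 5.96, 7.04 and 6.32 against 3.38, 3.64 and 3.32 FPKM (limma adjusted p = 0.000125). The ratio of the pair did not pass the threshold (log2 difference of the ratio -0.48 ± 0.23 SE, limma adjusted p = 0.158), but did so without young replicate 2. BC051226 lies 97 bases from Daxx, a histone chaperone gene, and overlaps no coding gene on the opposite strand. It read 3.68, 3.18 and 3.20 FPKM in the libraries labelled young and 1.43, 0.482 and 0.951 FPKM in those labelled aged (3.52-fold lower, limma adjusted p = 0.00112), and Daxx was lower too, at 28.3, 27.0 and 28.4 against 20.3, 19.5 and 19.4 FPKM (limma adjusted p = 5.56e-05).

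Gm44706, inside the peroxisome division gene Pex11a and with no exon base shared, fell 2.38-fold, with 6.84, 6.01 and 6.11 against 3.21, 2.32 and 2.43 FPKM (limma adjusted p = 0.0002). Pex11a fell in near proportion, with 13.5, 13.7 and 11.5 against 6.95, 5.74 and 6.49 FPKM (limma adjusted p = 0.000148), and no difference of the ratio was called (adjusted p = 0.565). Gm15122, inside the RNA-binding protein gene Dazap1 (85 exon bases shared), stood at 7.04, 6.11 and 4.64 against 2.64, 2.68 and 2.02 FPKM (2.42-fold lower, limma adjusted p = 0.001). Dazap1 fell less, at 42.0, 42.1 and 42.1 against 30.3, 30.6 and 30.8 FPKM (limma adjusted p = 2.4e-05). The fall of this ratio (log2 difference of the ratio -0.55 ± 0.16 SE, limma adjusted p = 0.0306) was lost without young replicate 1 or 2 or aged replicate 2 or 3.

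Gm11816 lies inside Clvs1, a clathrin-associated trafficking gene, without shared exon bases. It fell 2.06-fold, with 9.74, 9.31 and 8.77 against 3.49, 5.27 and 4.73 FPKM (limma adjusted p = 0.000697), while Clvs1 was under 1 FPKM in every library and was lower as well (limma adjusted p = 0.0183), a call lost without aged replicate 1 or without aged replicate 2. Gm31749, inside the kinesin gene Kif22 (96 exon bases shared), fell 2.44-fold, with 3.01, 3.47 and 2.81 against 0.778, 1.28 and 1.75 FPKM (limma adjusted p = 0.00314), and Kif22 stood at 17.4, 18.4 and 17.9 against 15.8, 16.6 and 15.7 FPKM (limma adjusted p = 0.0123), a call lost without young replicates 1 and 3. The ratio fell (log2 difference of the ratio -0.72 ± 0.17 SE, limma adjusted p = 0.0147), and this call was lost in the same way. Gm26935, head to head with the sperm glycolysis gene Gapdhs with no exon base shared, read 2.91, 3.22 and 4.35 against 1.46, 1.48 and 1.57 FPKM (2.33-fold lower, limma adjusted p = 0.000983). Gapdhs was low, between 0.831 and 2.09 FPKM, and fell (limma adjusted p = 0.0198), a call lost without young replicate 2 or 3 or aged replicate 1 or 3. Gm15347 converges on the phospholipid flippase gene Atp11a (172 exon bases shared) and fell 2.01-fold, with 7.09, 7.03 and 5.72 against 3.63, 3.37 and 2.87 FPKM (limma adjusted p = 0.000427). Atp11a stood at 16.0, 14.3 and 13.9 against 12.6, 12.2 and 13.7 FPKM (adjusted p = 0.0446), a call ended by 11 of 18 alternatives, among them leaving out young replicate 1 or 2 or aged replicate 1 or 2. The start of Gm15347 lies within Mcf2l, another coding gene on the strand of Atp11a, with a shorter overlap. Mcf2l fell as well, with 3.29, 3.55 and 3.56 against 2.14, 2.55 and 2.40 FPKM (limma adjusted p = 0.00181).

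The coding partners were more often lower than higher, as were protein-coding genes at 2 FPKM or more in general. Of 118 partners 101 could be tested, and 30 (29.7%) were higher and 46 (45.5%) lower, while 25 missed the threshold, and their median log2 difference was -0.09. Of all tested genes 27.7% were higher and 32.3% lower, and of protein-coding genes at 2 FPKM or more 29.98% and 39.7%. Without the 2 young libraries that hold kidney transcripts, 23 of 99 tested partners were higher and 30 lower, against 21.02% and 22.6% of all genes tested in that setting. With median centring 35 of 101 tested partners were higher and 40 lower, against 32.8% and 26.5% of all tested genes.

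For 102 pairs both rows were tested. Both rose in 10 pairs and both fell in 21. The antisense gene rose and the partner fell in 11, and the antisense gene fell and the partner rose in 2. Among these 13 pairs, the calls of 9130221H12Rik and A530020G20Rik were each lost in 6 of 18 alternatives. For Tug1, Gm15731, Runx2os1, Gm45012 and Gm16178 and their partners, the calls held in every alternative. In 15 pairs the antisense gene alone passed the threshold, in 33 the partner alone, and in 10 neither. Among the 290 tested pairs outside the members, both rose in 24 and both fell in 25. In 8 of those the antisense gene rose and the partner fell, and in 7 the reverse held. Over all 392 tested pairs, 80 went the same way and 28 went apart. Moving together more often than apart was thus not particular to the members. Across the 102 pairs the log2 differences of antisense gene and partner had a Pearson's r of 0.26, and of 0.27 without the Gm12454 and Car9 pair. That figure is a description across genes that share the same libraries and, in most pairs, exon bases. Across the 290 tested pairs outside the members it was 0.46.

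The change of the ratio was tested for all 392 pairs of the table with both rows tested. It was called in 110 pairs (28.1%), 17.1% higher and 11.0% lower. Among the 102 member pairs it was called in 47 (46.1%), 30 higher and 17 lower, and among the 290 other pairs in 63 (21.7%), which have lower antisense levels and fewer reads. Of the 31 pairs in which both genes went the same way, 10 had a called ratio. In the 13 pairs called in opposite directions the ratio was called as well, which their choice on the same values all but fixes. Called ratios made up 48.4% of member pairs that share exon bases and 42.1% of those that share none. Without young replicates 1 and 3, 29 of 100 member pairs were called, and without aged replicate 3 the calls were 34 of 101.

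**Figure D3:**
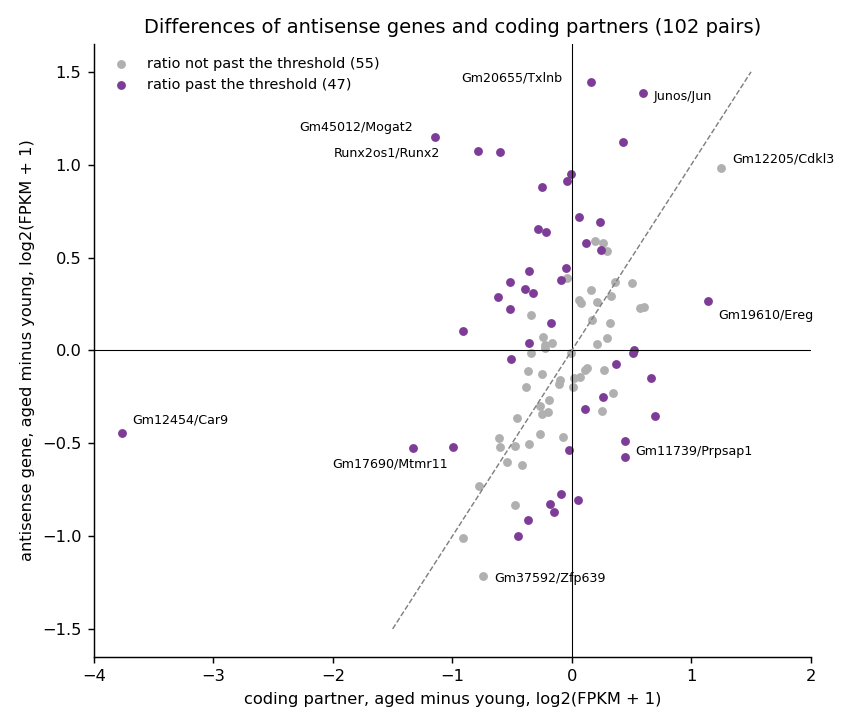
Difference of the antisense gene (vertical axis, aged minus young, log2 of FPKM + 1) against that of its coding partner (horizontal axis, same scale) for 102 pairs, with a dashed line at equal differences. The 47 pairs with a called change of the ratio are purple, and Gm12454 with Car9 lies far to the left of all others at a partner difference of -3.77.

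The largest change of a ratio belonged to Gm12454 and Car9, a carbonic anhydrase gene that low oxygen induces. The pair runs head to head with 214 shared exon bases, among them the coding stretch printed above. Car9 read 114, 125 and 92.4 FPKM in the libraries labelled young and 7.55, 6.32 and 7.55 FPKM in those labelled aged (15.46-fold lower, limma adjusted p = 2.78e-06). Gm12454 read 4.19, 5.16 and 4.12 FPKM in the libraries labelled young and 3.06, 2.89 and 3.12 FPKM in those labelled aged, a fall of 1.49-fold (limma adjusted p = 0.0033). Young replicate 2 had the highest value of both genes, and neither gene overlapped between groups. The ratio of Gm12454 to Car9 rose (log2 difference of the ratio 3.32 ± 0.12 SE, limma adjusted p = 4.99e-07), so the antisense row fell far less than its partner, although 19.8% of its exon bases face Car9 exons.

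Gm15731, head to head with the sorcin gene Sri and without shared exon bases, made up the 6 largest ratio changes together with Gm12454, Gm45012, Runx2os1, Gm16178 and Gm20655. It rose 2.08-fold, with 3.92, 3.10 and 3.04 against 7.45, 7.23 and 6.26 FPKM (limma adjusted p = 0.000299), while Sri, a calcium-binding protein gene, fell slightly, at 63.3, 64.0 and 63.6 against 53.7, 53.5 and 53.2 FPKM (limma adjusted p = 0.000245). The ratio rose (log2 difference of the ratio 1.12 ± 0.12 SE, limma adjusted p = 0.000399). Of the 11 pairs with a higher antisense gene and a lower partner, 5 run head to head, 4 lie inside the partner and 2 converge, and 5 share exon bases while 5 share none.

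**Figure D4:**
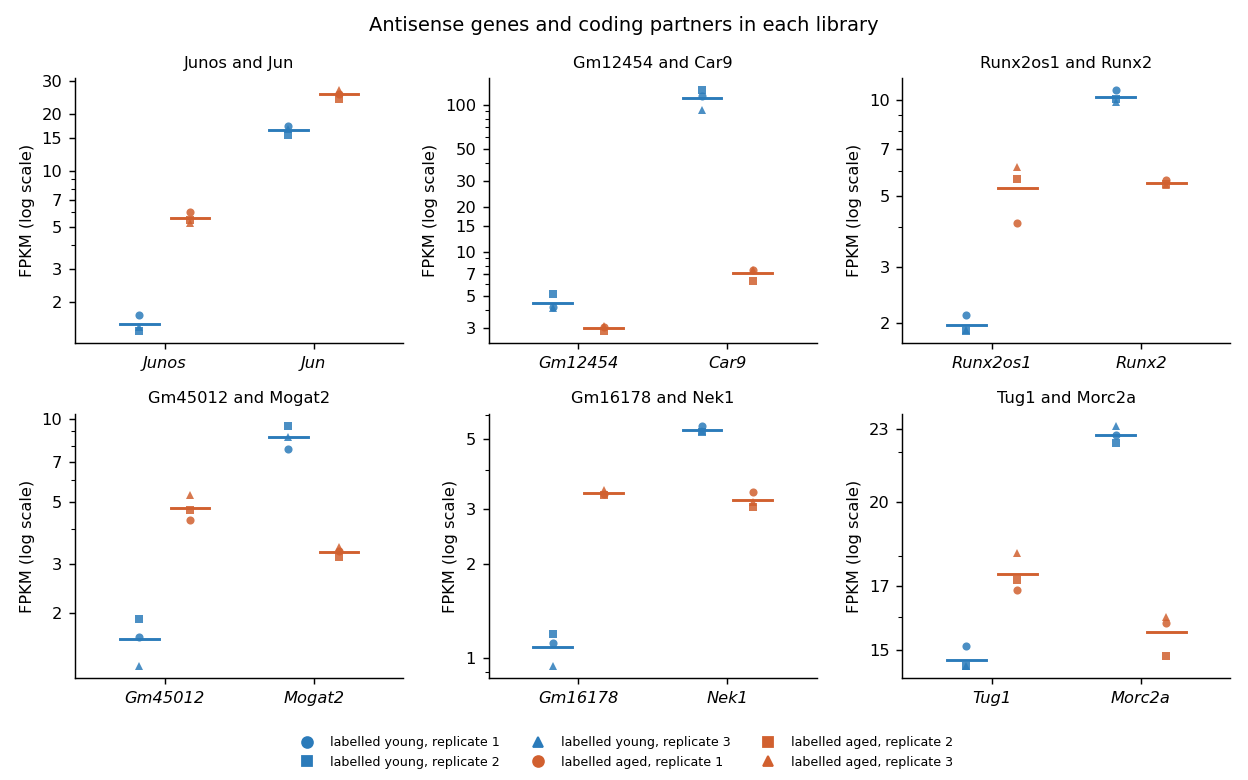
FPKM in each library (vertical axis, log scale that differs between panels) for 6 antisense genes and their coding partners, with bars at group means. Junos and Jun are both higher in the aged group, Gm12454 and Car9 both lower, and in the other 4 panels the antisense gene is higher and the partner lower.

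Further pairs, chosen after their values were seen, extend these groups. Among pairs that rose together, Gm12205 inside Cdkl3, a cyclin-dependent kinase-like gene, stood at 1.41, 1.10 and 0.907 against 3.44, 2.97 and 3.24 FPKM (limma adjusted p = 0.000221) and Cdkl3 at 1.57, 1.43 and 1.30 against 4.73, 4.35 and 5.33 FPKM (limma adjusted p = 3.42e-05), and they share no exon base. 1110046J04Rik inside Serpinb6a, a protease inhibitor gene, with 584 exon bases shared, stood at 2.23, 2.18 and 2.26 against 3.42, 3.01 and 3.09 FPKM (limma adjusted p = 0.00188). Serpinb6a stood at 76.2, 72.3 and 75.1 against 96.5, 98.3 and 93.7 FPKM (limma adjusted p = 0.000151), the far more abundant of the pair, and the rises were 1.43-fold and 1.29-fold.

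Among pairs that fell together, Gm17690 converges on Mtmr11, a myotubularin-related gene, and shares 1428 exon bases with it. Gm17690 stood at 3.93, 3.39 and 3.39 against 2.50, 1.97 and 2.08 FPKM (limma adjusted p = 0.00186) and Mtmr11 at 10.8, 10.7 and 10.1 against 3.94, 3.46 and 3.39 FPKM (limma adjusted p = 8.51e-06). The partner fell more (log2 difference of the ratio 0.80 ± 0.11 SE, limma adjusted p = 0.00127). By position Gm17690 also reaches Sf3b4, a coding gene just beyond Mtmr11 on the same strand. Sf3b4 rose, with 71.4, 71.1 and 69.7 against 113.8, 114.5 and 110.6 FPKM (limma adjusted p = 8.51e-06). Falling together thus describes Gm17690 and the partner with the longest overlap only. Gm13822, head to head with the interferon-induced gene Oasl1 (38 exon bases shared), stood at 3.19, 5.16 and 4.52 against 2.02, 2.90 and 2.35 FPKM (limma adjusted p = 0.0136), a call that voom on recovered reads did not make, and Oasl1 stood at 59.4, 58.3 and 61.4 against 48.8, 44.2 and 40.8 FPKM (limma adjusted p = 0.0014). Rab10os and the small GTPase gene Rab10 (143 exon bases shared) both fell, with 5.83, 5.85 and 5.54 against 4.48, 4.35 and 4.59 FPKM (limma adjusted p = 0.00133) and 67.7, 71.2 and 71.0 against 55.8, 59.8 and 58.2 FPKM (limma adjusted p = 0.000981), and no change of the ratio was called (adjusted p = 0.816).

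Among pairs that went apart, A830082K12Rik runs head to head with Nr2f1, a nuclear receptor gene of development (123 exon bases shared), and stood at 2.005, 2.30 and 2.04 against 3.11, 3.14 and 2.80 FPKM (limma adjusted p = 0.00338), a call lost without both kidney-containing young libraries. Nr2f1 stood at 7.55, 7.33 and 7.33 against 4.54, 4.70 and 5.37 FPKM (limma adjusted p = 0.000414), and the ratio rose (log2 difference of the ratio 0.89 ± 0.13 SE, limma adjusted p = 0.00177). Gm26854 inside Oxr1, an oxidation resistance gene, and Gm11739, which converges on Prpsap1, a gene of nucleotide precursor synthesis (48 exon bases shared), moved in opposite senses. Gm26854 stood at 8.57, 8.09 and 8.30 against 9.49, 11.8 and 9.99 FPKM and Oxr1 at 51.7, 52.0 and 49.2 against 33.3, 31.6 and 33.4 FPKM. Gm11739 stood at 4.02, 4.06 and 4.65 against 2.57, 3.26 and 2.41 FPKM and Prpsap1 at 19.6, 19.2 and 19.2 against 26.0, 26.9 and 27.0 FPKM (log2 difference of the ratio -0.93 ± 0.13 SE, limma adjusted p = 0.00127). Without young replicates 1 and 3 the calls of Gm26854 and Gm11739 were lost.

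In some pairs the partner changed and the antisense gene was not called. Gm19610 runs head to head with Ereg, an epidermal growth factor receptor ligand gene (141 exon bases shared), and stood at 6.41, 7.20 and 5.396 against 5.99, 9.97 and 7.84 FPKM (limma adjusted p = 0.215), with overlapping groups, though it was called without aged replicate 1. Ereg rose 2.63-fold, with 2.84, 2.86 and 2.65 against 7.42, 7.03 and 7.51 FPKM (limma adjusted p = 8.51e-06), and the ratio fell (log2 difference of the ratio -0.87 ± 0.18 SE, limma adjusted p = 0.00826). Gm13528 inside Ralgps1, an exchange factor gene for Ral GTPases, stood at 4.67, 5.62 and 6.08 against 6.10, 6.47 and 5.25 FPKM, while Ralgps1 fell 3.12-fold, with 2.50, 1.99 and 2.21 against 0.706, 0.739 and 0.707 FPKM (limma adjusted p = 0.000121). Gm14508 converges on Prkab1, a subunit gene of the energy-sensing kinase AMPK, and stood at 1.87, 3.07 and 2.51 against 2.07, 2.49 and 1.81 FPKM, while Prkab1 rose, with 21.5, 20.7 and 21.9 against 32.8, 34.4 and 35.9 FPKM (limma adjusted p = 3.26e-05).

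In other pairs the antisense gene rose and the partner was not called or was too low to test. Gm12905, whose facing stretch is printed above, converges on Mycbp, a Myc-binding protein gene, and stood at 0.971, 0.788 and 1.497 against 3.09, 2.87 and 3.01 FPKM (limma adjusted p = 0.000693). The printed stretch lies near the start of Mycbp (position 123904832) and not at its 3′ end. Mycbp stood at 4.59, 4.73 and 4.56 against 4.98, 4.34 and 4.502 FPKM (limma adjusted p = 0.924), and the ratio rose (log2 difference of the ratio 0.96 ± 0.15 SE, limma adjusted p = 0.0026). Bach2os inside Bach2, a transcriptional repressor gene (537 exon bases shared), stood at 3.17, 2.19 and 2.65 against 5.51, 4.81 and 4.69 FPKM (limma adjusted p = 0.00124) and Bach2 at 0.631, 0.522 and 0.525 against 0.655, 0.629 and 0.597 FPKM (limma adjusted p = 0.559). Kank4os rose 2.11-fold, with 4.36, 3.99 and 4.12 against 9.04, 8.98 and 8.25 FPKM (limma adjusted p = 2.11e-05), and Kank4 had at most 0.0123 FPKM. Gm14582 inside the glypican gene Gpc3, the single member on the X chromosome, stood at 1.66, 1.84 and 1.22 against 4.21, 3.62 and 4.45 FPKM (limma adjusted p = 0.00033) with Gpc3 at most at 0.302 FPKM.

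Members in the Hox clusters, which hold the transcription factor genes of body axis patterning, are described next, and among those named here Gm15050 alone passed the test. Gm15050 inside Hoxa3 fell, with 7.47, 7.20 and 7.98 against 4.004, 4.91 and 6.11 FPKM (limma adjusted p = 0.00923), a call lost without young replicates 1 and 3, and Hoxa3 fell with 3.38, 2.97 and 2.57 against 1.59, 1.53 and 1.74 FPKM (limma adjusted p = 0.0012). Hoxb5os spans Hoxb6 and stood at 7.68, 9.10 and 8.32 against 8.61, 12.4 and 12.5 FPKM (limma adjusted p = 0.0579), short of the threshold with all libraries and past it without aged replicate 1. Hoxb6 rose, with 19.4, 19.3 and 19.1 against 26.3, 27.7 and 29.5 FPKM (limma adjusted p = 0.000112). Gm11536 inside Hoxb3 stood at 3.26, 3.12 and 3.14 against 2.17, 3.20 and 2.61 FPKM (limma adjusted p = 0.139), called only without aged replicate 2 among the libraries left out in turn.

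Of the 13 members without an opposite-strand coding overlap, several lie close to a coding gene. Map2k3os lies 166 bases from Map2k3, a kinase gene of the p38 pathway, and stood at 2.97, 3.44 and 3.50 against 6.04, 5.98 and 4.06 FPKM (limma adjusted p = 0.0114), a call lost without young replicates 1 and 3. Map2k3 rose 1.89-fold, with 24.3, 22.4 and 24.3 against 46.6, 45.0 and 42.4 FPKM (limma adjusted p = 1.84e-05). These neighbours share no base, and Map2k3os was chosen after its values were seen.

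Genes that degrade or process such transcripts moved in both directions. Of 27 tested genes of the nuclear exosome and its adaptors, 7 were higher and 9 lower, while 11 missed the threshold, and the median log2 difference was -0.02 against -0.03 over all tested genes, of which 27.7% were higher and 32.3% lower. Tent4a, a noncanonical poly(A) polymerase that tags RNAs for decay, fell from 13.5 ± 0.494 to 6.54 ± 0.231 FPKM (limma adjusted p = 1.04e-05). Exosc1, an exosome subunit gene, rose from 10.7 ± 0.828 to 17.5 ± 1.18 FPKM (limma adjusted p = 0.000216) and Zc3h18, which links the cap-binding complex to the exosome, rose from 12.99 ± 0.297 to 16.5 ± 0.298 FPKM (limma adjusted p = 0.000267). Of 17 tested genes for double-stranded RNA editing and processing, 2 were higher and 8 lower, while 7 missed the threshold, and the median was -0.15, so that in both lists the share of called genes was near that of all tested genes (60.0%). Xpo5, the exporter of microRNA precursors, rose from 16.0 ± 0.621 to 23.4 ± 0.0160 FPKM (limma adjusted p = 4.42e-05). Prkra, a double-stranded RNA-binding protein gene, fell from 10.9 ± 0.482 to 6.21 ± 0.328 FPKM (limma adjusted p = 4.84e-05), and Stau1, a double-stranded RNA-binding protein of mRNA decay, fell from 14.1 ± 0.415 to 8.97 ± 0.700 FPKM (limma adjusted p = 0.000171). The part of these genes in the antisense levels was not tested.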

How the data were processed

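Bulk RNA sequencing libraries from tissue labelled mouse lung were compared, 3 labelled young and 3 labelled aged. The authors deposited FPKM values per gene, with coordinates and biotype. HISAT2 2.0.5 and mm10 are named in the submitters' processing notes. For the counting program, annotation and strand setting, the sources used here name none. Low values stepped in whole reads (100% of values within 0.01 of a whole number), which gave the reads per library.

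Differences were tested with limma 3.58.1 (R 4.3.3) on log2(FPKM + 1) with a mean-variance trend, 2-sided, for the 15197 genes at 0.5 FPKM or more in at least 3 of 6 libraries, with Benjamini-Hochberg adjustment over all of them and a threshold of 0.05. A fold change is a ratio of group mean FPKM. A log2 difference is on the log2(FPKM + 1) scale, which understates changes of low genes. The ratio of antisense gene to partner was tested likewise on log2((antisense + 1)/(partner + 1)) over 392 pairs. The partner is the protein-coding row with the longest opposite-strand overlap. Exon overlap came from GENCODE M21 and promoters from RefSeq. Python 3.11.15, pandas 2.3.3, numpy 2.4.6 and matplotlib 3.10.9 were used, and the fits were tested on simulated data.

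Named members are the 8 largest rises and 8 largest falls past the threshold without overlap between groups, the 6 highest means and the 6 pairs with the largest called ratio change. The members and lists were chosen with earlier results of these data known. Mpp6 was dropped from the exosome list, since that symbol belongs to a scaffold gene. Alternatives changed the pseudocount, filter, scaling, moderation, replicate block, threshold, member and partner rules and the libraries used, and limma voom was run on recovered reads, calling 9512 genes. The result of 1 pair is not reported here.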

Additional observations from a re-analysis of the deposited data

How the results depend on the processing

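Of the calls for single named genes and pairs, 0 reversed direction under any alternative. Some estimates that were not called changed sign with 1 library left out, such as that of Mycbp (log2 difference -0.054 to 0.027). The 8 named rises, the 8 named falls and the 6 largest ratio changes passed the threshold under every alternative that gave them a value. The count of all pairs with a called ratio, 110, was the least stable. It was 71 with a pseudocount of 0.1, 607 of 1892 pairs with no filter on low values, 67 of 209 pairs at a mean of at least 1 FPKM, 56 at an adjusted p of 0.01 and 70 to 91 with each library left out in turn, the lowest without aged replicate 3. Without both young libraries with kidney transcripts, an alternative chosen after seeing the data, it was 49 and the count of lower partners 30, while calls over all genes fell from 9115 to 6321. That setting leaves 1 young library, which is assumed to vary like the aged group.

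Members higher and lower numbered 85 and 54 at a mean of at least 1 FPKM and 13 and 5 at a mean of at least 5 FPKM. They numbered 17 and 9 of 46 where no exon base is shared and 23 and 20 of 71 where some are, both chosen after seeing the data. The sets at other minimum means hold other numbers of members, so their counts alone do not give shares. With each library left out in turn, calls ranged from 7806 to 8342 for all genes, 41 to 50 for higher and 29 to 33 for lower members, and 27 to 29 for higher and 39 to 45 for lower partners. Voom on recovered reads gave 48 higher and 29 lower members.

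Libraries with the same replicate number showed no strong shared deviation, with correlations of 0.006, -0.008 and 0.019 between their deviations. These values cannot show that the numbers carry no pairing. With the number as a replicate block 46 members were higher and 33 lower, 27 partners higher and 43 lower, 109 pairs and 8441 genes called. Calls of Ankrd52, Atp11a, Hoxb3, Gapdhs, Ptprt, Clvs1, 9130221H12Rik, A530020G20Rik and Gm17112, among others, were lost without single libraries, and the cause was not tested. Members rest on as few as 80 reads over 6 libraries, and there the counting error limits what can be seen.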
